A study of Mus musculus with 2 samples.

Results

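The genes described here are the immunoglobulin variable (V) genes of the heavy (Ighv), kappa (Igkv) and lambda (Iglv) loci, together with the constant genes of the light chains (Igkc and Iglc) and of the secreted heavy-chain classes (Ighg, Igha, Ighe) and the joining chain gene Jchain. They were taken by symbol, and among those symbols the members were chosen by their measured counts, as genes with at least 1 UMI (unique molecular identifier, 1 counted transcript molecule) in either library. Of 55386 features, 360 fitted the symbol rule and 90 of them had a UMI. The other 270 had 0 UMIs, 35 members had 1 UMI in both libraries together and 20 had 2 UMIs, so that detection is a matter of the rule and is not a finding. Of the members, 60 had a UMI at steady state and 59 on AngII, with 29 in both libraries, 31 at steady state alone and 30 on AngII alone.

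CD45-positive live cells were sorted from the adventitia of whole aortas of 16-week-old Rank-Cre Rosa26-eYFP mice, in which Cre is made from the Rank locus and marks macrophages descended from yolk sac progenitors. Both groups carried the same alleles, and the cells of several animals were pooled into 1 droplet library per condition. The steady state library came from 3 untreated animals, and the AngII library from 2 animals given angiotensin II, a peptide that raises blood pressure, at 1.8 µg per kg per min for 10 days from an implanted pump. With 1 library per condition there was no replicate, animals could not be told apart, and no difference between the conditions was tested. Ranges given as intervals are exact 95% intervals (Clopper-Pearson for shares, and Poisson for CPM, a gene's UMIs scaled to a fixed total of all UMIs in the same barcodes) and cover counting error only.

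The steady state library held 346 barcodes and the AngII library 4419, the numbers of cells that the paper analysed. The filter stated in its methods, 300 to 6500 genes with a UMI and mitochondrial UMIs of 5% or less, was applied again here. It left 306 and 4198 barcodes, fewer than in the paper. Their median depth was 9105 UMIs at steady state and 1092 UMIs on AngII. The libraries shared 0 barcode sequences. As the droplets differed so much in depth, shares of barcodes with a UMI are given beside the depth or after thinning. Thinning was applied to member counts only, and the gates stayed those of full depth.

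Each B cell joins 1 heavy V gene and 1 light V gene to the segments of its chain and keeps that choice, so V genes can mark single cells and their descendants. A resting B cell carries IgM and IgD on its surface, from the constant genes Ighm and Ighd. After activation it may switch to an IgG, IgA or IgE class, and plasma cells, its end stage, secrete antibody in large amounts, with Jchain linking the units of secreted IgM and IgA. A library read from the 3' end of transcripts captures the constant exons, which lie at that end, far more readily than the V exon.

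The bases by which V genes can differ over 1 read length are shown for V genes of the droplets with the most member UMIs. Where in the transcripts their reads fell was not examined. Each sequence is the last 91 bases, 1 read length, of the annotated V transcript (GENCODE M21 on GRCm38), 5' to 3', in the last of its 2 exons and on the strand of the gene. Capitals mark bases that differ from the most similar other V gene in an alignment without gaps. For the AngII droplet 4 of its 5 V genes are shown, without Iglv3, and Iglv2, with 2 UMIs, is shown as the neighbour of Iglv1. Iglv1 and Iglv2 differed from each other at 3 bases, Igkv9-120 from Igkv9-124 at 2 bases, and Ighv1-26 from Ighv1-34 at 0 bases over this stretch.
Ighv1-26: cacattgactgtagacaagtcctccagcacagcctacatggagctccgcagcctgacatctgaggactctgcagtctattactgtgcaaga
Igkv9-120: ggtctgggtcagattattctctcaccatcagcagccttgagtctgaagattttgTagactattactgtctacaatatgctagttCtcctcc
Iglv1: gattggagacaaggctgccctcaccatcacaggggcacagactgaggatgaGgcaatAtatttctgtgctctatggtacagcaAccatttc
Iglv2: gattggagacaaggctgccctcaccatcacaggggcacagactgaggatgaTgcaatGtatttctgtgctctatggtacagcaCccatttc
These stretches lie at chr12:114788372-114788462 on the minus strand, chr6:68050366-68050456 on the plus strand, and chr16:19085017-19085107 and chr16:19260401-19260491 on the minus strand. In the steady state droplet with the most member UMIs, Ighv7-1 differed from Ighv7-2 at 11 bases and Igkv15-103 from Igkv15-101 at 20 bases.
Ighv7-1: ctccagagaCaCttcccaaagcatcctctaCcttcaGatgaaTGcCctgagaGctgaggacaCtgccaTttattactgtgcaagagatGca
Igkv15-103: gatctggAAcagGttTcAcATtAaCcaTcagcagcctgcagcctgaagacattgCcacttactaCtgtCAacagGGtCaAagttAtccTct
They lie at chr12:113896408-113896498 on the minus strand and chr6:68437835-68437925 on the plus strand. Over whole transcripts, 33 of the 80 V members shared at least 1 stretch of 91 bases with another gene, among them Ighv1-26 (11.1% of its stretches, with Ighv1-18 and Ighv1-34), Igkv9-120 (4.56%, with Igkv9-124) and Iglv1 (4.65%, with Iglv2), and how the counting treated such reads was not tested. The largest share was 57.2%, for Igkv6-20, and 2 V members shared over 50% of their stretches.

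Most member UMIs lay in B-cell-gated barcodes, and a single droplet held 29.2% of them at steady state and 85.4% on AngII. A barcode was B-cell-gated when it had UMIs of at least 2 of 4 B cell genes, among them Cd79a, Cd79b and Ms4a1, none of which is a member. At steady state 55 of 306 barcodes passed the gate, 18.0% (interval 13.8 to 22.7), and held 99.8% of the 6292 member UMIs. On AngII 165 of 4198 barcodes passed, 3.93% (3.36 to 4.56), and held 98.0% of the 40801 member UMIs. The AngII share rested on 1 droplet, which held 2 of the 4 gate genes: it was 86.2% without that droplet, and 12.0% with a gate of at least 3 genes, which left the droplet out. With that gate the steady state share was 70.6%, since its highest droplet also held 2 gate genes. Single barcodes carried 1839 member UMIs at steady state and 34861 on AngII. The barcodes in second place carried 203 and 465 UMIs.

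**Figure D1:**
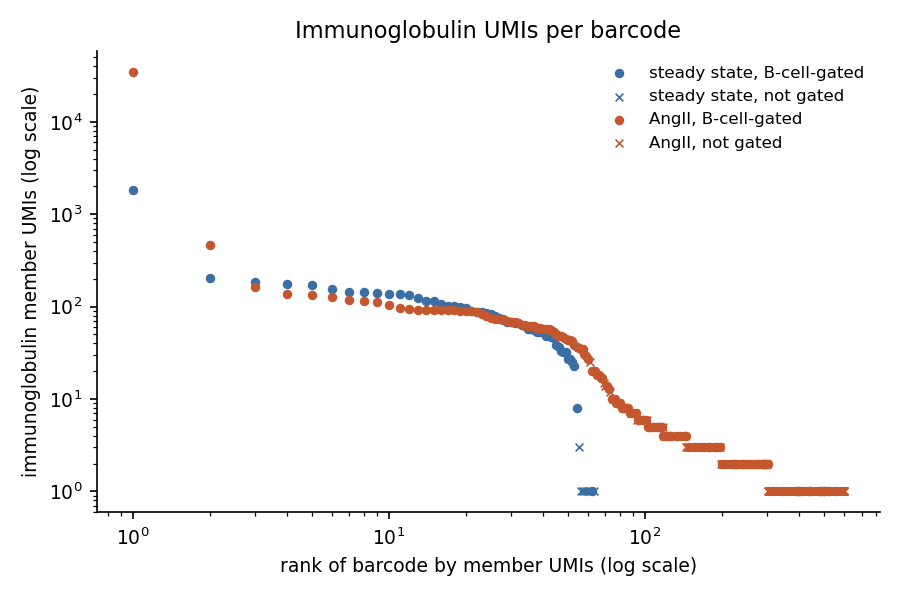
Member UMIs of each filtered barcode with at least 1 (y axis, log scale) against its rank in its library (x axis, log scale), for steady state (blue) and AngII (orange), with circles for B-cell-gated and crosses for other barcodes. The first AngII barcode stands at 34861 UMIs and the first steady state barcode at 1839, above second barcodes of 465 and 203.

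The summed level of the members depended on these droplets. Members summed to 1725 CPM (interval 1682 to 1768) at steady state and to 2266 CPM (2244 to 2288) on AngII. Without the highest droplet of each library they summed to 1223 CPM (1187 to 1260) and 331 CPM (322 to 339), and the order of the libraries turned.

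The highest AngII droplet held transcripts of IgG2c and a kappa chain. Of its 54597 UMIs, 63.9% were member UMIs. It held 22050 UMIs of Igkc, the kappa constant gene (chr6:70726435-70726966), 8799 of Ighg2c, the IgG2c heavy chain (chr12:113285325-113288932), and 2563 of Jchain (chr5:88519809-88527891). Ighm and Ighd had 0 UMIs. Its V UMIs were 1025 of Iglv1, 109 of Igkv9-120, 29 of Iglv3, 24 of Ighv1-26 and 2 of Iglv2, so that 1 heavy V gene and 1 kappa V gene were seen, together with all 3 lambda V genes of the list. The 1056 lambda V UMIs outnumbered the 211 UMIs of the lambda constant genes Iglc1, Iglc2 and Iglc3, whereas Igkv UMIs came to 0.494% of Igkc and Ighv UMIs to 0.271% of Ighg. The droplet also held 49 UMIs of Ighg3, an IgG class, and Xbp1, a driver of the secretory machinery of plasma cells, at 212 UMIs.

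The list of plasma cell genes bore out a secreting cell in part. Txndc5 (104 UMIs) and Fkbp11 (50), which help to fold proteins in the endoplasmic reticulum, Eaf2 (24), Derl3 (13), a component of protein disposal there, Sdc1 (4), the surface marker CD138, and Tnfrsf17 (2), the receptor BCMA, were present. Prdm1, the regulator of plasma cell fate, had 10 UMIs. Mzb1, a chaperone of antibody assembly, had 0 UMIs here and 1 UMI in all filtered cells of both libraries. Of the gate genes it held Cd79a (6) and Cd79b (9) and 0 UMIs of Ms4a1. Markers of other classes were near 0, with 0 UMIs of Cd3e, C1qa, Csf1r and Xcr1, 3 of Apoe, 2 of Lyz2 and 1 of S100a8.

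The highest steady state droplet held IgM with Jchain. Of its 7275 UMIs, 1136 were Igkc, 709 Ighm and 654 Jchain, the last being all the Jchain UMIs of that library. Ighd and the Ighg genes had 0 UMIs. Its V UMIs were 21 of Ighv7-1 (chr12:113896408-113896946), 14 of Igkv15-103 (chr6:68437440-68437925) and 1 of Iglv3, and Ighv7-1 was found in no other filtered barcode of either library. Igkv UMIs came to 1.23% of Igkc. Xbp1 had 10 UMIs, Pou2af1, a coactivator of immunoglobulin promoters, 7, Txndc5 6, and Sdc1 and Eaf2 2 each, with 0 UMIs of Pax5, the B cell identity factor. Scrublet, a doublet caller, marked this droplet as a doublet, and it held 0 UMIs of Cd3e, C1qa, Csf1r, Lyz2 and S100a8.

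**Figure D2:**
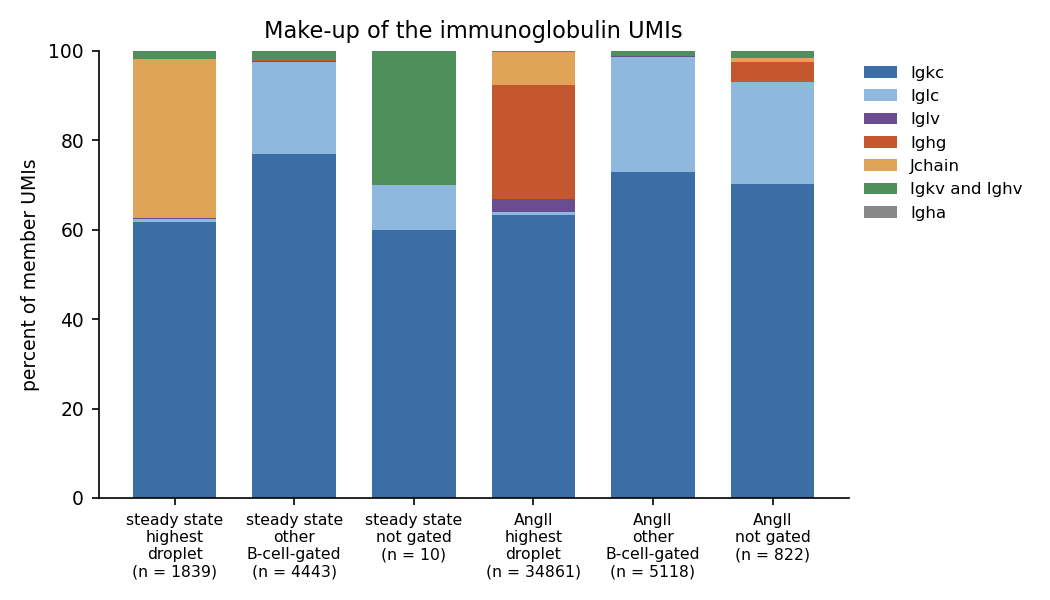
Share of member UMIs (y axis, percent) taken by each kind of gene (colours) in the highest droplet, the other B-cell-gated barcodes and the barcodes outside the gates of each library, with n the number of member UMIs. Ighg made up 25.4% of the highest AngII droplet and Jchain 35.6% of the highest steady state droplet, while Igkc and Iglc made up most of the other gated barcodes.

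A second gate for plasma cells, at least 3 of the 7 plasma cell genes with fewer than 2 B cell genes, found 1 barcode at steady state and 5 on AngII. These held 0 member UMIs, so the name of that gate was not borne out. Both droplets above passed the B cell gate instead.

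Without the highest droplets, 54 gated barcodes remained at steady state and 164 on AngII. They were not the same kind of population. At steady state 49 lay in the B cell-like cluster and 5 in the macrophage-like cluster, in clusters rebuilt without immunoglobulin genes. On AngII 56 lay in the B cell-like cluster (median depth 5304 UMIs) and 108 in other clusters (median 1323 UMIs). Those 108 had Cd79a at 639 CPM (564 to 721) against 2935 CPM (2769 to 3108) in the B cell-like cluster, and the macrophage genes C1qa at 2061 CPM (1925 to 2204) and Lyz2 at 6897 CPM (6647 to 7155). A value for all AngII gated barcodes is therefore a mean over both sets. The B cell-like clusters were not alike in such genes either. C1qa, Apoe and Lyz2 stood at 386, 2870 and 963 CPM in that of AngII, and at 10.7, 309 and 60.5 CPM at steady state. CPM values of these clusters include this RNA, and its effect on the levels of B cell genes was not tested.

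Igkc was the most abundant member outside the highest droplets as well. At steady state, the gated barcodes held between 1 and 175 Igkc UMIs, with a median of 54.5, and every one of the 54 had Igkc. On AngII they held between 0 and 350 with a median of 4, and 139 of 164 had Igkc, 84.8% (78.3 to 89.9). Within the B cell-like clusters the medians lay at 57 UMIs at steady state and 53 on AngII, at median depths of 5573 and 5304 UMIs, so the low overall median on AngII came with the 108 barcodes of other clusters, whose median was 2. Summed, Igkc stood at 11513 CPM (11120 to 11917) in the steady state B cell-like cluster and 8062 CPM (7786 to 8346) in that of AngII.

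Most gated barcodes were kappa, the light chain that most mouse B cells are known to make. A barcode was called kappa where Igkc had more UMIs than all Iglc genes together. At steady state 49 of 54 barcodes with a light constant UMI were kappa, 90.7% (79.7 to 96.9), and 5 were lambda. On AngII 127 of 148 were kappa, 85.8% (79.1 to 91.0), 15 lambda and 6 tied. In the B cell-like cluster of AngII 51 of 56 were kappa, 91.1% (80.4 to 97.0). The intervals of the 2 libraries overlapped.

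Many kappa barcodes also held lambda constant UMIs. At steady state 48 of 49 did. On AngII 87 of 127 did, which were 51 of 51 in the B cell-like cluster and 36 of 76 in the others. Of those with at least 10 Igkc UMIs, 47 of 47 at steady state and 60 of 62 on AngII also had Iglc, and Iglc took 17.6% (16.4 to 18.8) of the light constant UMIs of kappa barcodes at steady state and 20.7% (19.6 to 21.9) on AngII. In the other direction, the 5 lambda barcodes of steady state held 2 to 56 Igkc UMIs, while on AngII 3 of the 6 with at least 10 Iglc UMIs held 0. Summed over kappa barcodes of steady state Iglc1 took 18.9%, Iglc2 41.1% and Iglc3 39.8% of the Iglc UMIs, and on AngII 21.8%, 41.2% and 36.8%. The few lambda barcodes are given singly, as their sums rest on 1 or 2 of them. At steady state, Iglc1, Iglc2 and Iglc3 had 1, 72 and 7 UMIs in the first, 60, 7 and 3 in the second, 7, 17 and 4 in the third, 15, 4 and 0 in the fourth and 1, 10 and 7 in the last. On AngII, of the 6 with at least 10 Iglc UMIs, 4 had most UMIs from Iglc1, at 56, 28, 27 and 16 UMIs, beside 1 to 14 of Iglc2 and 0 to 3 of Iglc3. The other two had most from Iglc2, at 88 and 53 UMIs, beside 1 of Iglc1 each and 6 and 7 of Iglc3. Iglc4 had 1 UMI in each library.

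**Figure D3:**
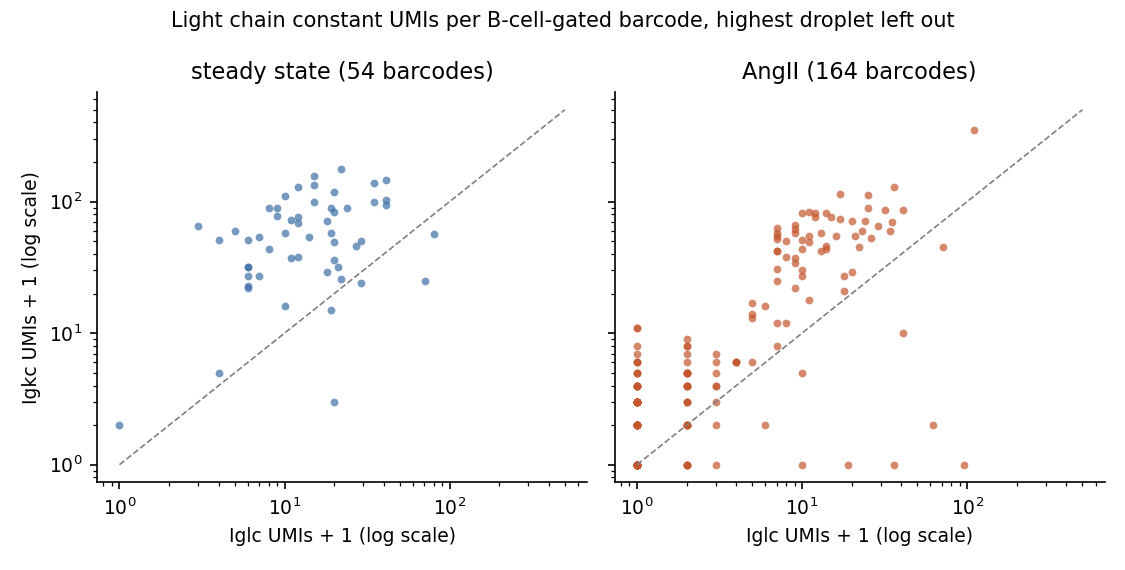
Igkc UMIs (y axis) against Iglc UMIs (x axis) of each B-cell-gated barcode, both with 1 added and on log scales, for steady state (54 barcodes, left) and AngII (164 barcodes, right), without the highest droplet, and the dashed line marking equal counts. The barcodes under the line are the 5 and 15 lambda barcodes, and kappa barcodes with many Igkc UMIs also lie at several Iglc UMIs.

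The lambda constant genes differ to unequal degrees, which is shown by their first coding bases, with capitals where Iglc1 and Iglc2 differ from Iglc3 and Iglc3 from Iglc2. Over 91 bases Iglc2 and Iglc3 differed at 5 and Iglc1 and Iglc3 at 20. They lie at chr16:19061981-19062071, chr16:19198762-19198852 and chr16:19065591-19065681 on the minus strand. None of them shared a stretch of 91 bases with another gene.
Iglc1: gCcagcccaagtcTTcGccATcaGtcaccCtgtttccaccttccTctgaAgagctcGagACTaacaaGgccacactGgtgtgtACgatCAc
Iglc2: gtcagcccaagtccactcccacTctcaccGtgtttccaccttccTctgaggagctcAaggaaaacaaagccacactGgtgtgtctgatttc
Iglc3: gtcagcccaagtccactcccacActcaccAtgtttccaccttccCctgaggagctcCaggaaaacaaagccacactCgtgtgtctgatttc

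Class-switched constant genes were rare outside the AngII droplet. At steady state Ighg2c had 6 UMIs, all in 1 gated barcode that had 175 Igkc UMIs and 0 UMIs of Ighm and Ighd, Ighg3 had 1 UMI and Igha 1 UMI. In the 164 AngII barcodes Ighg2c had 2 UMIs and Ighg2b and Ighg3 1 each. Ighe, the IgE chain, and Ighg1 had 0 UMIs in both libraries. By contrast 53 of 54 gated barcodes at steady state, 98.1% (90.1 to 99.95), and 133 of 164 on AngII, 81.1% (74.3 to 86.8), held Ighm or Ighd. The AngII barcodes were 56 of 56 in the B cell-like cluster and 77 of 108 in the others. Ighm was not confined to the gate, as 181 of 250 barcodes outside the gates at steady state and 909 of 4028 on AngII also held it. Ighd was in 48 of 54 and 83 of 164 gated barcodes, and in 9 and 78 barcodes outside the gates. In each library 1 barcode had more switched than Ighm and Ighd UMIs. At steady state it was the barcode with 6 Ighg2c UMIs given above, and on AngII a barcode of 604 UMIs with 1 Ighg UMI. Jchain had 0 UMIs in the 54 barcodes and 1 in the 164.

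V genes were found in fewer gated barcodes on AngII than at steady state, where 26 of 54 had a heavy V UMI, 48.1% (34.3 to 62.2), against 21 of 164, 12.8% (8.10 to 18.9). A light V UMI was seen in 29 of 54 and in 23 of 164, and both chains in 14 and 9. Depth and kind of barcode moved with this. None of the 70 AngII barcodes with fewer than 2000 UMIs had a heavy V UMI. From 2000 to 5000 UMIs it was 10 of 42 on AngII and 4 of 7 at steady state, and above 5000 UMIs 11 of 52, 21.2%, and 22 of 46, 47.8%, so the AngII share was the lower in both of these depth classes. By cluster, 19 of the 21 with one lay in the B cell-like cluster, where 19 of 56 barcodes had a heavy V UMI, 33.9% (21.8 to 47.8), against 25 of 49 at steady state, 51.0% (36.3 to 65.6). These intervals overlapped at like median depths, whereas those of all gated barcodes did not. The heavy V level in the 2 B cell-like clusters was 146 CPM (105 to 198) at steady state and 67.7 CPM (44.6 to 98.5) on AngII, and the light V level 199 CPM (150 to 259) and 75.3 CPM (50.8 to 107), each with intervals apart. Igkv UMIs came to 1.52 per 100 Igkc UMIs in the steady state gated barcodes and 0.803 per 100 in those of AngII, and to 1.45 and 0.809 per 100 in the B cell-like clusters. After thinning each barcode to 1000 UMIs and leaving out 1 and 39 shallower gated barcodes, 10 of 54 steady state and 1 of 126 AngII barcodes, highest droplets included, had a heavy V UMI. The gate was still that of full depth.

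**Figure D4:**
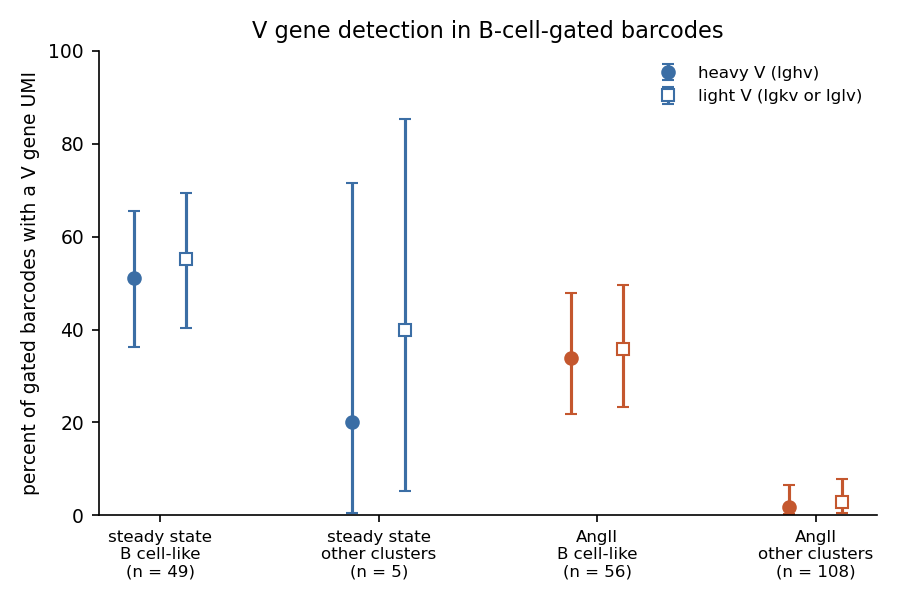
Share of B-cell-gated barcodes with a UMI of a heavy V gene (filled circles) or a light V gene (open squares), with exact 95% intervals, inside and outside the B cell-like cluster of each library, without the highest droplets. In the B cell-like clusters heavy V shares were 51.0% and 33.9%, and outside that cluster the AngII share was 1.85%.

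How many V genes a barcode held could be read only where it had at least 2 V UMIs. Of 26 barcodes with a heavy V UMI at steady state 15 had 1 UMI, and of 21 on AngII 14 had 1. Among those with at least 2 heavy V UMIs a single heavy V gene was present in 10 of 11 and 7 of 7. Among those with at least 2 light V UMIs a single light V gene was present in 6 of 16 and 5 of 10. Of the barcodes with an Igkv UMI, 25 of 25 at steady state and 19 of 20 on AngII were kappa, beside 90.7% and 85.8% of all gated barcodes with a light constant UMI. Of those with an Iglv UMI, 6 of 8 and 2 of 4 were kappa.

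Each V gene had few UMIs. Of the 45 V members found in gated barcodes of steady state 22 had 1 UMI, and of the 40 on AngII 26 did, so that they could lie in 1 barcode at most. Of those with at least 2 UMIs, 7 of 23 and 6 of 14 lay in 1 barcode. Ighv1-80 (chr12:115912344-115912776) had the most UMIs of its chain in 3 steady state barcodes, with 8 UMIs in all, Ighv1-64 (chr12:115507545-115508031) in 3 AngII barcodes, with 6 UMIs, and Igkv6-15 (chr6:70406469-70406992) in 4 steady state barcodes, with 7 UMIs. No other V gene was the highest of its chain in more than 2. Ighv1-80 and Igkv6-15 had 0 UMIs on AngII, and Ighv1-64 had 2 at steady state. Over the last 91 bases of their transcripts, shown here, Ighv1-80 differed from Ighv1-77 at 2 bases, Ighv1-64 from Ighv1-52 at 2 and Igkv6-15 from Igkv6-23 at 3. Over whole transcripts, none of these genes shared a stretch of 91 bases with another gene.
Ighv1-80: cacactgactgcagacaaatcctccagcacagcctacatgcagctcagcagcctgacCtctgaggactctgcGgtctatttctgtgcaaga
Ighv1-64: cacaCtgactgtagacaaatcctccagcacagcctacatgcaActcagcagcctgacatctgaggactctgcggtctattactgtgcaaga
Igkv6-15: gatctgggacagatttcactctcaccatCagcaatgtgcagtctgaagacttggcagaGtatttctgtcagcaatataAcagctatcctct

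Among the V genes with the most UMIs, most of the rest owed their rank to few barcodes. At steady state Igkv12-44 had 9 UMIs, 8 of them in 1 barcode, Ighv1-66 had 5, 4 of them in 1, and Ighv1-74 had 5 in 2 barcodes. Ighv1-50 and Igkv1-117 had 4 each in 2 barcodes, and Iglv1 had 4 in 3. Iglv3 was the exception with 5 UMIs in 5 barcodes. On AngII the highest droplet held 1025 of 1026 Iglv1 UMIs, 109 of 111 of Igkv9-120, 29 of 31 of Iglv3 and all 24 of Ighv1-26. Next came Ighv1-64 with 6, Ighv3-6 with 4 in 2 barcodes, and Ighv1-76, Ighv1-81, Ighv1-9 and Igkv12-44 with 3 each. By family, Ighv1, the largest of the locus, had 22 of its 93 listed genes detected, with 39 UMIs at steady state and 22 on AngII outside the highest droplet. Ighv11 (2 listed genes) and Ighv12 (3 listed), to which heavy chains of B-1 cells often belong, had 0 UMIs, which at this depth does not show that they are absent.

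Most other genes of the pathway followed the gate. Of 32 genes of B cell identity, signalling and antibody secretion that did not set the gate, 26 had at least 20 UMIs at steady state, and 20 of these were at least 2-fold higher in CPM in gated than in ungated barcodes without the highest droplet, beside 10.0% of all 10035 genes with as many UMIs. On AngII 19 of 25 were, beside 9.06% of 12937 genes. At least 2-fold lower in gated barcodes were 2 genes at steady state, Tnfrsf17 and Prdm1, beside 22.6% of all genes. On AngII it was 1, Sdc1, beside 15.5%. These 3 are genes of plasma cells, but each had only 1 or 2 UMIs in the gated barcodes of that library, and none was lower in both libraries. On AngII Prdm1 stood at 27.0 CPM in gated and 23.6 CPM in ungated barcodes. In the gated barcodes of steady state Pax5 stood at 389 CPM (329 to 456), with 0 UMIs outside, Ebf1, a factor of early B cells, at 1321 CPM (1209 to 1440) and Vpreb3, which acts in B cell receptor assembly, at 397 CPM (336 to 464). On AngII they stood at 220 CPM (189 to 255), 757 CPM (699 to 819) and 86.1 CPM (67.1 to 109). These AngII levels are means over barcodes of unlike kinds. In the B cell-like clusters, Pax5 stood at 512 CPM (432 to 603) at steady state and 366 CPM (309 to 431) on AngII, Ebf1 at 1697 CPM (1548 to 1856) and 1277 CPM (1168 to 1393), and Vpreb3 at 530 CPM (448 to 622) and 145 CPM (110 to 188). In the other gated AngII barcodes they stood at 79.6, 258 and 28.9 CPM. Xbp1 did not follow the gate. It was at 95.3 CPM (67.1 to 131) in gated and 182 CPM (168 to 198) in ungated barcodes at steady state, and at 154 CPM (128 to 183) and 235 CPM (227 to 242) on AngII. Of 5 genes of B-1 cells, Cd5 had 0 UMIs in the steady state gated barcodes, which allows up to 9.50 CPM as the upper bound, and 18.4 CPM (10.3 to 30.4) on AngII, with all 15 UMIs in 3 barcodes. Cd5 was also found in ungated barcodes, at 16.4 CPM (12.3 to 21.4) at steady state and 9.60 CPM (8.18 to 11.2) on AngII. In gated barcodes the intervals of the other 4 genes overlapped between the libraries.

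Outside the gates, Igkc was nearly absent at steady state and spread on AngII. At steady state 4 of 250 ungated barcodes had Igkc, 1.60% (0.438 to 4.05), with 6 UMIs and 1.85 CPM (0.681 to 4.04) at a median depth of 10328.5 UMIs. On AngII 343 of 4028 had it, 8.52% (7.67 to 9.42), with 578 UMIs and 34.0 CPM (31.3 to 36.9) at a median depth of 1070 UMIs. The CPM was 18.4 times (8.38 to 50.2) that of steady state. The gate was set at full depth, so the barcodes of the 2 libraries met it at unlike depths. The effect of this on the difference was not tested. In gated barcodes the Igkc CPM of AngII was 0.522 times (0.498 to 0.547) that of steady state, and 0.70 times (0.667 to 0.735) between the B cell-like clusters. After thinning to 1000 UMIs, 0 of 248 steady state and 112 of 2157 AngII ungated barcodes had an Igkc UMI, 5.19% (4.29 to 6.21), and the 0 allows up to 1.48% as the upper bound. As the gate was not thinned, this does not equalise the depth at which barcodes were called ungated. Most of the positive AngII barcodes, 222 of 343, had 1 UMI, and 12 had 5 or more, up to 12 UMIs.

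Among the ungated AngII barcodes Igkc went with a single gate gene. Of those with 1 of the 4 gate genes, 115 of 357 had Igkc, 32.2% (27.4 to 37.3), and of those with none 228 of 3671, 6.21% (5.45 to 7.04). Their median depths were 1672 and 1038 UMIs, and after thinning each barcode to 500 UMIs the shares were 19.6% (15.6 to 24.1) and 3.43% (2.87 to 4.07). Ighm, which is no member, was found far more widely than Igkc. It had UMIs in 181 of 250 ungated barcodes at steady state and 909 of 4028 on AngII, at 212 CPM (197 to 229) and 128 CPM (122 to 133), so its CPM was the lower on AngII where that of Igkc was the higher.

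Genes of B cells other than the gate genes were also higher where Igkc was found. Against the 3685 ungated AngII barcodes without Igkc, the 343 with it had Pax5 at 15.8 times (6.90 to 36.9) the CPM, Fcmr, the IgM receptor, at 14.6 times (7.56 to 28.6), Ighd at 13.5 times (8.69 to 21.1) and Ebf1 at 13.3 times (8.43 to 20.8). Of 23 pathway genes with at least 20 UMIs, 10 were at least 2-fold higher and 0 at least 2-fold lower, beside 2.36% higher and 7.52% lower of 12787 genes. The macrophage genes C1qa and Apoe stood at 1.17 times (1.12 to 1.21) and 1.20 times (1.17 to 1.22), and Xbp1 at 0.832 times (0.728 to 0.947). The median depths were 1188 and 1060 UMIs. Whether single barcodes held RNA of more than 1 cell was not tested.

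Igkc outside the gate was uneven over clusters. On AngII it was highest in cluster 0, which stayed unnamed and was led by Dnase1l3, Cxcl9 and Cd72, with 107 CPM (94.6 to 122) and 122 of 678 ungated barcodes, and in the macrophage-like cluster 7, led by interferon genes such as Cxcl10 and Ifit2, with 106 CPM (83.5 to 133). The neutrophil-like cluster 6 had 85.9 CPM (62.4 to 115), the cDC1-like cluster 1, of dendritic cells, 47.0 CPM (33.9 to 63.5) and the macrophage-like cluster 2, led by Gas6, Stab1 and Cd163, 32.5 CPM (26.7 to 39.2). Cluster 1 was led by Siglech, which is on the marker list of plasmacytoid dendritic cells, with Ifi205 and Xcr1 next. The other neutrophil-like clusters 8 and 14 had 7.05 CPM (1.92 to 18.1) and 10.6 CPM (0.268 to 59.1), the monocyte-like cluster 3 had 8.27 CPM (5.24 to 12.4), the T cell-like cluster 4, led by Mcpt4, Trbc2 and Cma1 and holding the highest droplet, 9.85 CPM (4.72 to 18.1), and the cDC1-like cluster 12 and the migratory dendritic cell-like cluster 11, the deepest, 2.49 CPM (0.680 to 6.39) and 0.892 CPM (0.0226 to 4.97). The remaining clusters 5, 9 and 10 had 6.74 CPM (2.91 to 13.3), 3.33 CPM (0.0843 to 18.5) and 11.7 CPM (4.29 to 25.5). Clusters of 1 name could stand far apart, as the neutrophil-like 6 and 8 and the cDC1-like 1 and 12 did, and their median depths were 1059 and 3740 UMIs and 827 and 25256 UMIs. The gate genes moved with Igkc, at 62.3, 65.1, 44.9, 43.6 and 33.1 CPM together in the ungated barcodes of clusters 0, 7, 6, 1 and 2, and at 1.76, 10.6, 12.9, 14.8, 3.74 and 2.68 CPM in those of clusters 8, 14, 3, 4, 12 and 11. Shallow clusters lay at both ends, as the ungated barcodes of the low clusters 3, 4, 5, 9 and 14 had median depths of 816 to 1170 UMIs and those of the high clusters 0, 7, 6 and 1 of 825.5 to 1126 UMIs. At steady state the T cell-like and monocyte-like clusters had 0 Igkc UMIs in 51 and 28 ungated barcodes, and the macrophage-like cluster 4 UMIs in 118.

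In ungated AngII barcodes Igkc stood to Ighg2c and to Iglc in other proportions than in the highest droplet. Igkc UMIs were 2.51 times those of Ighg2c in that droplet, 16.1 times in ungated barcodes and 1867 times in the other gated barcodes, which had 2 Ighg2c UMIs. Ighg2c UMIs were 3.43 times those of Jchain in the droplet and 5.14 times in ungated barcodes, on 7 Jchain UMIs. Igkc was 105 times Iglc in the droplet, 3.11 times in ungated and 2.84 times in gated barcodes. The ungated value pools unlike clusters. Igkc and Iglc had 250 and 68 UMIs in ungated barcodes of cluster 0 and 109 and 19 in those of cluster 2. Iglc had the more in cluster 1, at 42 and 55 UMIs, and in cluster 9, at 1 and 3. The ungated AngII barcodes with the most member UMIs held 25, 15 and 14, while none held more than 12 of Igkc. How far the Iglc sums rest on few barcodes was not examined. Igkc was 1.33 times the gate gene UMIs in ungated and 1.29 times in gated barcodes, but this ratio is bounded by the gate itself. Ighg2c, with 36 UMIs in 35 ungated barcodes, stood at 2.12 CPM (1.49 to 2.94), and at 2.46 CPM (0.298 to 8.88) in the gated barcodes, with 0 UMIs in ungated barcodes of steady state. Jchain had 0 UMIs in ungated barcodes of steady state. Ighv and Igkv had 7 UMIs each there on AngII, together 1.70% of the member UMIs of ungated barcodes, beside 1.17% in the other gated barcodes and 0.382% in the highest droplet. At steady state they had 3 and 0 of 10 member UMIs.

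**Figure D5:**
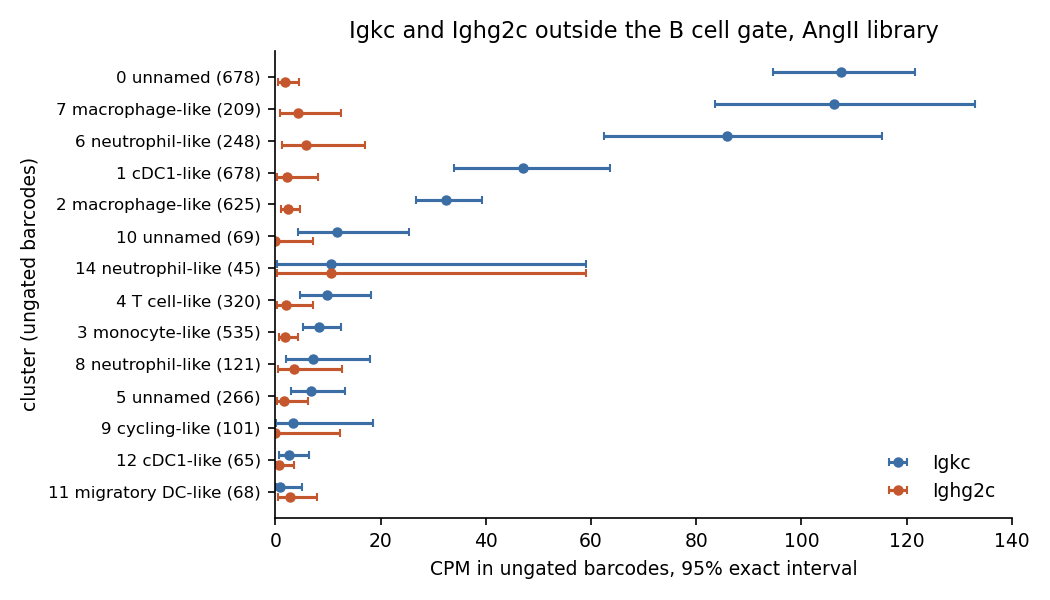
Igkc (blue) and Ighg2c (orange) in CPM with exact 95% intervals (x axis) in the ungated barcodes of each AngII cluster (y axis, with the number of barcodes), in the order of Igkc. Igkc ranges from 107 CPM in cluster 0 to 0.892 CPM in cluster 11, while Ighg2c stays at or below 10.6 CPM, the value of 1 UMI in cluster 14.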

How the data were processed

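Single CD45-positive cells were profiled in 2 libraries (10x 3' v3.1). Per the labels and methods, the authors demultiplexed reads with Je, used Cell Ranger 3.1.0 on GRCm38.p6 (annotation GENCODE M24, eYFP added), and deposited raw UMI counts of called cells. All 360 identifiers of the symbol rule were found in the same version in GENCODE M21, which gave coordinates and sequences. Members, gates and gene lists were chosen with earlier results of these data known.

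The filter kept barcodes in which 300 to 6500 genes had a UMI and 5% of UMIs or less were mitochondrial. Clusters were drawn per library in Seurat 5.3.0 (sctransform 0.4.2, R 4.3.3) from 20 components at resolution 0.4, without genes starting Igh, Igk or Igl and Jchain among the variable genes. They were named from 19 marker lists by the mean log2 fold with 20 CPM added, with at least 3 markers raised and no more markers of another class among the 10 leading genes. Ungated means neither gate. The values of 1 gene that set the B cell gate are not reported here. Named genes are the constant and Jchain members with a UMI, the 10 V genes with most UMIs in each library (ties by name), those highest of their chain in at least 3 gated barcodes, and those with at least 20 UMIs of which 1 barcode held over 80%. Doublets were left in, and Scrublet (Scanpy 1.11.5) served as an alternative. It called 5 of 306 steady state barcodes and 0 of 4198 on AngII, where it was taken not to have worked. Other steps used Python 3.11.15 with pandas 2.3.3, Matplotlib 3.10.9, SciPy 1.17.1 and NumPy 2.4.6, and intervals and thinning were tested on simulated data. For a count of 0 the upper bound given is that of the exact interval. Alternatives changed the filter, gate, depth, call and resolution.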

Additional observations from a re-analysis of the deposited data

How the results depend on the processing

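Of 84 alternative values of 14 results, 48 stayed inside the 95% counting interval of the reported value, which included every share of kappa barcodes, and 36 left it. Without the barcode with the most member UMIs, members summed to 1223 and 331 CPM (steady state and AngII), the highest remaining barcode held 4.56% and 7.83% of them, and gated barcodes held 86.2% on AngII. Over all deposited barcodes members summed to 1570 and 2009 CPM, and the highest AngII barcode held 84.7%. With a gate of at least 1 of 4 genes, 35.1% and 4.79% of gated barcodes had a heavy V UMI, gated AngII barcodes held 98.8% of member UMIs and 6.21% of the others had Igkc. With at least 3 of 4 genes both highest droplets fell outside the gate, which then held 70.6% and 12.0% of member UMIs, with heavy V in 22.7% and Igkc in 9.75% of the other barcodes on AngII. Thinned to 1000 UMIs (3 and 1910 shallower barcodes left out, gates set at full depth), the highest barcode held 23.1% and 38.3%, heavy V was in 18.5% and 0.794% of gated barcodes, Igkc in 0% and 5.19% of the others, and gated AngII barcodes held 86.4% of member UMIs. Chosen after seeing the data, thinning without the highest droplet gave 4.65% and 2.67% for the highest barcode, 17.0% and 0.80% for heavy V, 0% and 5.19% for Igkc, and 78.0% in gated AngII barcodes. With 2 UMIs for a call, heavy V was in 21.8% and 4.85% of gated and Igkc in 0.40% and 3.00% of the other barcodes. Without the 5 barcodes called by Scrublet at steady state, among them the highest droplet, members summed to 1226 CPM and the highest barcode held 4.66%. The AngII library gave no Scrublet value, as 0 barcodes were called. Leaving out barcode sequences found in both libraries changed nothing, as there were 0, and clusters at resolution 0.8 left 5.32% and 24.8% of Igkc UMIs outside the B cell-like clusters, against 5.32% and 25.5%. The cause of these shifts was not tested beyond what each alternative removes.

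No paired analysis was possible because each condition had 1 library. Depth limits what can be read of V genes, as 34 of 80 V members rest on 1 UMI. Pooled animals and the lack of replicates bound every comparison, and reads shared between near-identical V genes bound those of V genes that share a stretch.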
